A study of Mus musculus with 14 samples.

Results

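Genes of the red blood cell were followed in RNA-seq libraries of embryonic mouse hippocampus: the 4 adult globin genes Hba-a1, Hba-a2, Hbb-bs and Hbb-bt, the 3 embryonic globin genes Hba-x, Hbb-y and Hbb-bh1, the membrane anion exchanger Slc4a1 and the heme enzyme Alas2. These 9 genes were listed by name, out of 18581 named genes in a table of 59796 assembled loci. For each name the locus with the highest mean was kept. The list was chosen by earlier results on these libraries, in which adult hemoglobin genes stood out in the comparison of 189N3 mice with their littermates. The 189N3 values below are therefore a description, and tests run on them give no independent support. The libraries are of whole hippocampus, in which fewer erythroid cells and less erythroid RNA per cell cannot be told apart.

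Hemoglobin is a tetramer of alpha-like and beta-like chains, each carrying a heme. In the mouse embryo, primitive erythroid cells from the yolk sac carry the embryonic chains zeta (Hba-x), epsilon y (Hbb-y) and beta h1 (Hbb-bh1), and definitive erythroid cells from the fetal liver carry the adult chains. Circulating fetal red cells and reticulocytes still hold globin RNA, and organs are dissected with the blood they hold. Alas2 catalyses the first step of heme synthesis in erythroid cells, and Slc4a1, also called band 3, exchanges chloride for bicarbonate and anchors the skeleton of the red cell to its membrane.

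The study compared mouse models of Down syndrome with their wild-type littermates on a C57BL6 background. The 189N3 group (n = 3) carried an extra copy of Dyrk1a, a protein kinase gene, on a bacterial artificial chromosome, and its littermates (n = 3) were wild type. The Dp(16)1Yey group, here Dp16 (n = 4), carried an extra copy of the chromosome 16 region that is syntenic with human chromosome 21, and its littermates (n = 4) were wild type. All embryos were dissected between embryonic days 16 and 18. No label gives the age of a single embryo, and replicates are numbered from 0 in each group. Nothing in the labels says whether a library held 1 embryo or several, so that p-values measure the spread between these libraries.

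The 14 libraries held 20809135 to 29098454 fragments (median 23749358). Values are normalized fragments per locus. Dyrk1a stood at 4248, 3938 and 5877 in the 189N3 libraries and at 2448, 2977 and 2126 in their littermates. In Dp16 replicates 0, 2 and 3, the median of 83 genes of the duplicated region was higher than in the littermates by 0.69, 0.58 and 0.40 on the log2 scale. The library labelled Dp16 replicate 1 showed a difference of 0.08, so that the extra copy was not seen there, and fold changes and list medians in Dp16 are given with and without it. Among the Dp16 littermates, replicates 0 and 1, and replicates 2 and 3, were nearly alike: their median squared difference was 1.65 and 2.05 times that of counting noise, against 8.95 to 111 times in all other pairs within groups. Neuronal genes were abundant in every library, with the 8 genes of a neuron list summing to 103930 to 208145.

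The adult globin genes come in near-identical copies, and the sequences below show the bases that tell the copies apart. In the GENCODE vM21 transcripts (GRCm38), the coding sequences of Hba-a1 and Hba-a2 matched at 428 of 429 bases and differed by C381T, counted from the A of the start codon, with Hba-a1 first. Those of Hbb-bs and Hbb-bt matched at 443 of 444 bases and differed by C417T, with Hbb-bs first. The copies shared uninterrupted runs of 380 and 416 bases. The coding sequences are printed around that single base, which is in capitals:
Hba-a1, coding bases 367 to 395: catgcctctctggaCaaattccttgcctc
Hba-a2, coding bases 367 to 395: catgcctctctggaTaaattccttgcctc
Hbb-bs, coding bases 403 to 431: gtggctggagtggcCgctgccctggctca
Hbb-bt, coding bases 403 to 431: gtggctggagtggcTgctgccctggctca
The embryonic genes were further apart, so that their reads are less open to exchange: Hbb-bs matched Hbb-y at 330 and Hbb-bh1 at 329 of 444 coding bases, and Hba-a1 matched Hba-x at 266 of 429.

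The alpha-like genes lie side by side on chromosome 11 (Hba-x at chr11:32276400-32278116, Hba-a1 at chr11:32283511-32284465 and Hba-a2 at chr11:32296489-32297298, plus strand). The beta-like genes lie on chromosome 7 (Hbb-bt at chr7:103812524-103813996, Hbb-bs at chr7:103826534-103828096, Hbb-bh1 at chr7:103841637-103843164 and Hbb-y at chr7:103851749-103853216, minus strand). Slc4a1 lies at chr11:102348824-102366203 on the minus strand, and Alas2 at chrX:150547375-150570638 on the plus strand. The 120 bases before the RefSeq start of the genes are shown (GRCm38.p6). RefSeq held this sequence for 7 of the 9 genes. Capitals mark, on either strand, the GATA motif GATAA, the Krüppel-like factor box CACCC and the promoter box CCAAT, and on the strand of the gene the TATA box as ATATAA or, in other promoters, as ATAAAA. No motif overlapped another in these windows:
Hba-a1, chr11:32283552-32283671, plus strand: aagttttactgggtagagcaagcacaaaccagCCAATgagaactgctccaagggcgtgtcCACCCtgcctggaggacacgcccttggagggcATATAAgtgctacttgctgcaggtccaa
Hbb-bs, chr7:103827929-103828048, minus strand: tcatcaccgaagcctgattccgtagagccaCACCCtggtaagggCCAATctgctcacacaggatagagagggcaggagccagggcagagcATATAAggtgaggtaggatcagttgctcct
Hbb-bt, chr7:103813924-103814043, minus strand: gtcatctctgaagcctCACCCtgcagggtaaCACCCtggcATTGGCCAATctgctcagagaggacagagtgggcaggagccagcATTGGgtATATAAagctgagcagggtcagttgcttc
Hba-x, chr11:32276480-32276599, plus strand: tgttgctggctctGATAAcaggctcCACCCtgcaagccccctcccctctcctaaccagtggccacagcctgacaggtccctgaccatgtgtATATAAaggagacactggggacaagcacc
Hbb-y, chr7:103853208-103853327, minus strand: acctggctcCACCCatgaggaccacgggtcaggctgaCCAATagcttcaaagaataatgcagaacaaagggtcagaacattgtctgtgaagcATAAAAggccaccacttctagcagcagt
Alas2, chrX:150547297-150547416, plus strand: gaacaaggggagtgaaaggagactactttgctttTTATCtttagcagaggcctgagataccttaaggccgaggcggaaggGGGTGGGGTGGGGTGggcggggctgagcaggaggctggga
Hba-a2 (chr11:32296372-32296491) matched Hba-a1 at all 117 bases once shifted by 3, whereas Hbb-bs and Hbb-bt matched at 88 of 119 bases once shifted by 1. CACCC was in all 7 windows and in 31.7% of 32851 windows of the same length. CCAAT was in 5 of 7 against 21.3%, ATATAA in 5 of 7 against 2.85%, ATAAAA in 1 of 7 against 5.07% and GATAA in 2 of 7 against 10.5%. The windows of Hba-a1 and Hba-a2 are alike, so the 7 windows are not independent. These are matches of letters, and no binding was measured. A link of the motifs to the levels was not tested.

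Adult globins were the most abundant of the genes in every group. Per kilobase of the longest protein-coding transcript, the median level of Hbb-bs was 43819 normalized fragments in the 189N3 littermates, 17236 in 189N3, 15457 in Dp16 and 5562 in the Dp16 littermates. Hba-a1, Hba-a2 and Hbb-bt followed at medians of 1539 to 13299 per kilobase across the groups, and they did not separate from each other beyond their spread. Alas2 came next, at 387 to 1191 per kilobase. Slc4a1 was low, at medians of 74.3 per kilobase or less. Among the embryonic genes, Hbb-y had medians of 24.5 to 299 and Hba-x of 14.3 to 111 per kilobase. Hbb-bh1, the third, was at 12.4 or less. All globins together took 0.0194% to 0.238% of the fragments of a library, 4504 to 63161 fragments.

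**Figure D1:**
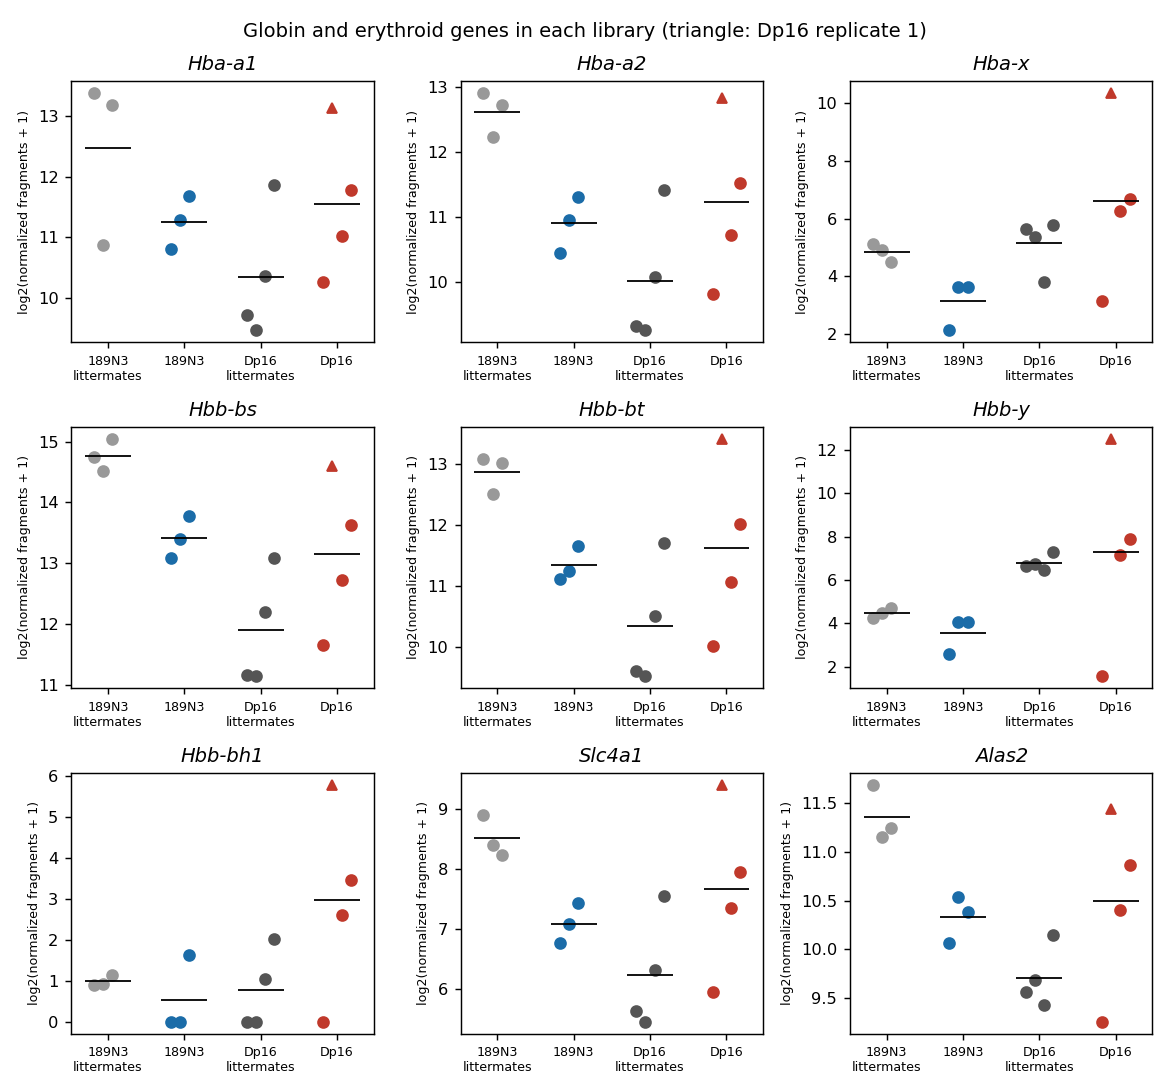
Each panel plots 1 gene as log2(normalized fragments + 1), with 1 point per library and a line at the group mean, for the 189N3 littermates (n = 3), 189N3 (n = 3), the Dp16 littermates (n = 4) and Dp16 (n = 4). The 189N3 libraries sit below their littermates in Hba-a2, Hbb-bs, Hbb-bt, Hba-x, Hbb-y, Slc4a1 and Alas2, and the triangle, Dp16 replicate 1, is the highest point of Hba-x, Hbb-y, Hbb-bh1, Hbb-bt and Slc4a1.

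The first question was how these genes stood when Dyrk1a alone was present in an extra copy. All 8 genes above the filter (a mean of at least 10) had a fold change below 0 in 189N3. In 7 of the 8, every 189N3 library was below every littermate library, where 2.99% of all loci tested were. Their log2 fold changes ran from -0.93 to -1.72 with a median of -1.39, beside a median of -0.04 for all 35899 loci. With Benjamini-Hochberg adjustment in limma, none of the 9 genes and none of the loci passed an adjusted p of 0.05 (0% called). At an unadjusted p under 0.05, 672 loci were counted, 0.825% of those tested being higher and 1.05% lower. DESeq2 called 15 loci, among them Hba-a2, Hbb-bs, Hbb-bt and Slc4a1, while edgeR called 0. Since this comparison led to the list, the calls of its genes are a description and no independent support.

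Hbb-bs, the more abundant adult beta chain, stood at 8675, 10824 and 14101 in 189N3 and at 27518, 23468 and 33927 in the littermates (log2 fold change -1.35, standard error 0.24). Hbb-bt, its neighbour, stood at 2215, 2433 and 3223 against 8693, 5829 and 8286 (-1.53, standard error 0.24). In both, the highest 189N3 library was well below the lowest littermate library. Hba-a2 stood at 1396, 1997 and 2532 against 7724, 4830 and 6771 (-1.72, standard error 0.27).

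Hba-a1 stood at 1790, 2500 and 3305 against 10730, 1877 and 9296 (-1.22, standard error 0.49). It was the only tested gene whose groups overlapped, through littermate replicate 1. In that library Hba-a2 took 72.0% of adult alpha fragments (95% exact binomial interval 71.0% to 73.0%), against 41.9% to 46.5% in the other 13 libraries. Without it the log2 fold change of Hba-a1 was -2.02. The sum of Hba-a1 and Hba-a2 is left alone by a split of reads between copies. It was 3186 to 5838 in 189N3 and 6707 to 18454 in the littermates (log2 difference -1.52), and the groups did not overlap. In littermate replicate 1 Hba-a2, at 4830, was also the lowest of the littermates, and the sum was 6707 against 18454 and 16067. The low Hba-a1 there had no matching gain of Hba-a2, and the sum holds it too.

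The erythroid genes outside the globin clusters had changes of like size. Slc4a1 stood at 107, 134 and 171 in 189N3 and at 477, 338 and 302 in the littermates (log2 fold change -1.43, standard error 0.27). Alas2 stood at 1071, 1485 and 1336 against 3309, 2277 and 2425 (-1.03, standard error 0.24). Of the embryonic globins, Hba-x stood at 3.38, 11.4 and 11.4 against 33.8, 28.9 and 21.8 (-1.71, standard error 0.44), from 4 to 39 fragments a library. Hbb-y stood at 5.08, 15.5 and 15.6 against 18.2, 21.7 and 25.4 (-0.93, standard error 0.43). The groups did not overlap in any of these. Hbb-bh1 was below the filter, with 0, 0 and 2 fragments against 1, 1 and 1, and a count of 0 allows up to 3 fragments.

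The second question was how the same genes stood with the larger duplication. All 8 tested genes had a fold change above 0 in Dp16, with a median of 1.23 on the log2 scale beside 0.03 for all 36024 loci. None passed the adjusted threshold in limma (0% of loci called, smallest adjusted p of the genes 0.909), and in none were the groups apart, where 1.72% of loci were apart with Dp16 higher and 0.736% with Dp16 lower. In this comparison 1273 loci had an unadjusted p under 0.05, 1.71% of those tested being higher, with Slc4a1 among them, and 1.82% lower. DESeq2 called 8 loci and edgeR 0, and no gene of the list was called by either. Without Dp16 replicate 1 the median was 0.67, and Hbb-y turned from 0.51 to -1.23. Without Dp16 replicate 0 the median was 1.83.

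Hbb-bs stood at 3211, 24894, 6729 and 12685 in Dp16 replicates 0 to 3 and at 2287, 2257, 4699 and 8694 in the littermates (log2 fold change 1.25, standard error 0.59; 0.77 without Dp16 replicate 1). Hbb-bt stood at 1033, 10982, 2147 and 4147 against 779, 733, 1458 and 3357 (1.29, standard error 0.66; 0.70 without that library). Replicate 1 was the highest and replicate 0 the lowest Dp16 library in both genes. An exact two-sided permutation test of Hbb-bs gave p = 0.171, where 4 against 4 libraries can reach 0.0286.

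Hba-a1 stood at 1224, 9042, 2074 and 3511 against 837, 706, 1315 and 3753 (1.20, standard error 0.61; 0.67 without Dp16 replicate 1). Hba-a2 stood at 907, 7321, 1693 and 2951 against 644, 614, 1083 and 2748 (1.20, standard error 0.61; 0.67 without it). In both alpha copies littermate replicate 3 stood apart from the other littermates and within the Dp16 range. Slc4a1 stood at 60.3, 682, 162 and 246 against 48.4, 42.6, 78.8 and 187 (1.43, standard error 0.65, adjusted p = 0.909 in limma; 0.84 without Dp16 replicate 1). Alas2 stood at 610, 2788, 1352 and 1869 against 755, 820, 687 and 1137 (0.79, standard error 0.38; 0.47 without it). In Alas2 replicate 0 was below every littermate, and replicate 1 was the highest of the line.

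The embryonic globins spread far more among the Dp16 libraries than the adult ones. Hbb-y stood at 1.98, 5846, 142 and 236 in Dp16 and at 97.9, 107, 86.4 and 154 in the littermates (log2 fold change 0.51, standard error 1.65). Hba-x stood at 7.91, 1315, 76.5 and 102 against 49.5, 40.6, 13.0 and 54.6 (1.46, standard error 1.14; 0.21 without Dp16 replicate 1). Replicate 1 thus held far more, and replicate 0 less Hbb-y than any other library of either line. Hbb-bh1 had 0, 46, 5 and 10 fragments in Dp16 and 0, 0, 1 and 3 in the littermates.

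**Figure D2:**
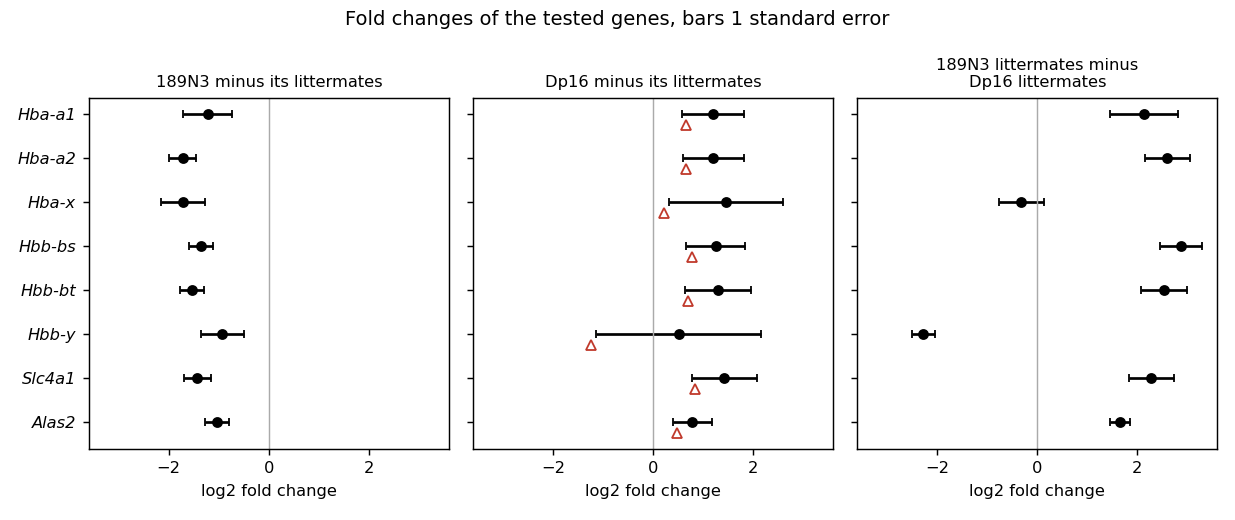
Log2 fold changes (horizontal axis) of the 8 tested genes with bars of 1 standard error, for 189N3 minus its littermates, Dp16 minus its littermates, and the 189N3 littermates minus the Dp16 littermates. Open triangles give the Dp16 values without replicate 1. All 8 genes are below 0 in the first panel and above 0 in the second, where Hbb-y moves to -1.23 without that library. In the third panel Hbb-y, at -2.28, stands opposite to the adult globins.

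The genotype effects of the models were set against each other in 1 fit of all libraries. The effect in Dp16 minus that in 189N3 was above 0 in all 8 genes, from 1.44 for Hbb-y to 3.17 for Hba-x. None passed in limma (adjusted p = 0.922 for each, 0% of 36045 loci called). At an unadjusted p under 0.05, 957 loci were counted (1.53% of those tested above 0 and 1.12% below), and edgeR and DESeq2 called 0. Without Dp16 replicate 1 the difference was -0.30 for Hbb-y, the highest was 2.39, for Hba-a2, and the median of the 8 was 2.02. Part of this contrast is the 189N3 comparison that led to the list.

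The wild-type groups of the lines also differed in these genes. Hba-a2, Hbb-bs, Hbb-bt, Slc4a1 and Alas2 were higher in the 189N3 littermates than in the Dp16 littermates, and Hbb-y was lower. In limma 5 of 8 tested genes were called higher (1.46% of 36047 loci were) and 1 lower (2.29% of loci). The line, litter, embryo age and any difference in dissection or processing go together with this comparison and cannot be told apart, and the 189N3 littermates are also the controls of the comparison that led to the list. Leaving out 189N3 littermate replicate 0 or replicate 2 left none of the 6 calls, with a smallest adjusted p of 0.0524 and 0.0526. Without 189N3 littermate replicate 1 or Dp16 littermate replicate 0 the calls of Hbb-y and Alas2 were left, and without Dp16 littermate replicate 1 or 2 those of Hbb-bs, Hbb-y and Alas2. All directions stayed.

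Hbb-bs was 7.34-fold higher in the 189N3 littermates (log2 difference 2.88, standard error 0.42, adjusted p = 0.0265 in limma), and the lowest of these libraries exceeded the highest Dp16 littermate 23468 to 8694. Hba-a2 differed by 2.60 (standard error 0.45, adjusted p = 0.0324) and Hbb-bt by 2.53 (standard error 0.46, adjusted p = 0.0335). Slc4a1 differed by 2.28 (standard error 0.44, adjusted p = 0.0371) and Alas2, the erythroid heme enzyme, by 1.66 (standard error 0.20, adjusted p = 0.0125). The groups of all 5 genes were apart, where 10.8% of loci were apart in that direction. Hba-a1 differed by 2.13 (standard error 0.67, adjusted p = 0.0896) and overlapped through littermate replicate 1, the library with the shifted alpha split.

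Hbb-y went the other way: 18.2, 21.7 and 25.4 in the 189N3 littermates were all below 97.9, 107, 86.4 and 154 in the Dp16 littermates (log2 difference -2.28, standard error 0.23, adjusted p = 0.00538 in limma). Hba-x differed by -0.32 (standard error 0.44, adjusted p = 0.690) and its groups overlapped. Without limma's trend, Hbb-y and Alas2 stayed past the threshold, and with the nearly alike littermates averaged Hbb-bs, Hbb-y and Alas2 did. For each gene whose groups were apart, an exact two-sided permutation test gave p = 0.0571, the smallest that 3 against 4 libraries can give.

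Shares within the globins cancel the total amount of globin RNA in a library. Hbb-y and Hbb-bh1 together made up 0.0526%, 0.0770% and 0.0629% of beta-like fragments in the 189N3 littermates and 0.0466%, 0.117% and 0.102% in 189N3. The 6 libraries of the 189N3 line were all at 0.117% or less. In the Dp16 littermates the share was 3.09%, 3.45%, 1.40% and 1.28%. In Dp16 replicates 0 to 3 it was 0.0466% (95% exact binomial interval 0.00564% to 0.168%), 14.1% (13.8% to 14.5%), 1.63% (1.38% to 1.91%) and 1.44% (1.27% to 1.63%). Dp16 replicate 0 lay among the libraries of the other line, and the other 7 libraries of its line were all at 1.28% or more. Intervals cover counting error only.

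Hba-x, the embryonic alpha-like gene, lies on another chromosome. Its share of alpha-like fragments was 0.106% to 0.253% in 189N3, 0.135% to 0.429% in the littermates and 0.537% to 3.23% in the Dp16 littermates. In Dp16 it was 0.370%, 7.44%, 1.99% and 1.55% in replicates 0 to 3. Across the 14 libraries the log2 levels of Hba-x and Hbb-y had r = 0.93, whereas Hbb-y and Hbb-bs had r = 0.10. After subtraction of each group mean these were 0.95 and 0.80. These correlations describe the libraries, which share depth and scaling within each.

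**Figure D3:**
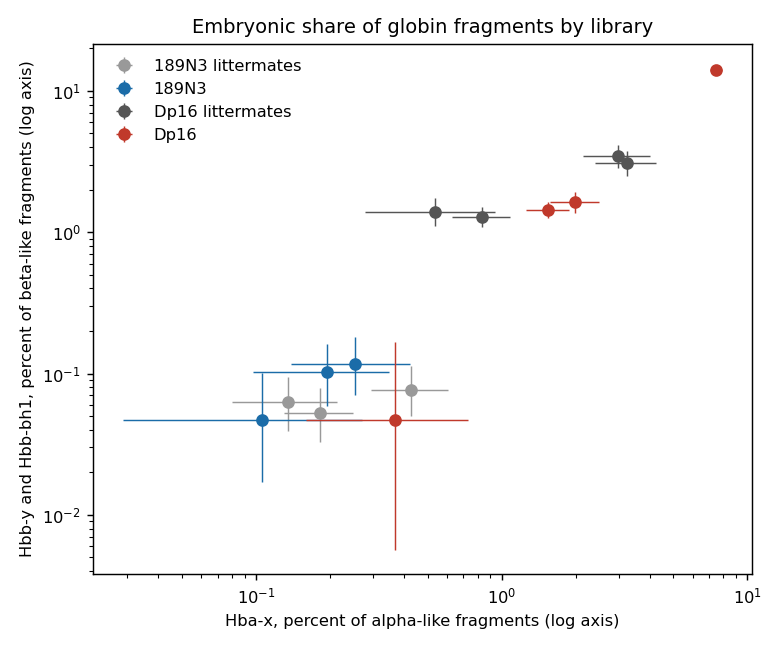
Each point is a library, with the percent of alpha-like fragments from Hba-x on the horizontal and the percent of beta-like fragments from Hbb-y and Hbb-bh1 on the vertical axis, both on log axes, with 95% exact binomial intervals. All 189N3-line libraries and Dp16 replicate 0 lie at 0.117% of beta-like fragments or less, the other Dp16-line libraries at 1.28% or more, and Dp16 replicate 1 at 14.1%.

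The split between the adult beta genes also differed between libraries. Hbb-bt took 18.4% to 20.3% of adult beta fragments in 189N3, 19.6% to 24.0% in the littermates, 23.7% to 27.9% in the Dp16 littermates and 24.2% to 30.6% in Dp16, with 30.6% in replicate 1. The ratio of alpha-like to beta-like fragments ran from 0.230, in the 189N3 littermate with the shifted alpha split, to 0.537. Slc4a1 had 5.18 to 12.6 fragments per 1000 globin fragments. Alas2 ranged from 41.6 to 184 per 1000, highest in Dp16 littermate replicates 0 and 1, which had the least globin.

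Alas2 had 3 assembled isoforms that did not move alike. One that matched an annotated transcript ranged from 245 to 2636 normalized fragments, with 1683 to 2636 in the 189N3 littermates, 532 to 979 in 189N3 and 245 to 734 in the Dp16 littermates. The next, which matched another annotated transcript was at 218 to 253 in the 189N3 littermates, 45.3 to 229 in 189N3 and 155 or less in Dp16, and it was at 64.6 in Dp16 littermate replicate 3 and at 0.215 or less in the other 3. A variant with an unannotated junction varied far less, from 217 to 674 over all libraries, and overlapped between all groups. It was the most abundant isoform in Dp16 littermate replicates 0 and 1. Fold changes of the whole gene sum these isoforms.

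Other genes of red cell biology were read from 6 lists, which were written with earlier results of these data known. Of the genes of the red cell membrane and its skeleton, 9 of 14 tested genes were below 0 in 189N3 and none passed adjusted. Epb42, which links band 3 to the skeleton, was at -1.07 (standard error 0.42, adjusted p = 1.00 in limma) with groups that did not overlap. The list median was -0.04, equal to that of all loci, and the list also holds membrane skeleton genes that neurons use. In Dp16 the list median was -0.03 and Epb42 was at 1.07 (standard error 0.51, adjusted p = 0.909 in limma), with overlapping groups. Without Dp16 replicate 1 these were -0.09 and 0.56 (standard error 0.39). Between the wild-type groups Epb42 differed by 1.12 (standard error 0.32, adjusted p = 0.0709 in limma), higher in each 189N3 littermate than in any Dp16 littermate.

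Of the heme synthesis list, which holds genes other than Alas2, none of 11 had an unadjusted p under 0.05 in 189N3 (median -0.06) or in Dp16 (-0.06). Fech, which inserts iron into the ring, had the smallest p in both (-0.36, standard error 0.25, and 0.38, standard error 0.22). Without Dp16 replicate 1 the Dp16 median was -0.11 and Fech was at 0.18 (standard error 0.18). None of the 11 was called between the wild-type groups either.

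Of 7 genes for iron uptake and storage, Slc25a37, the mitochondrial iron importer mitoferrin, had a fold change of -1.19 in 189N3 (standard error 0.29, adjusted p = 1.00 in limma), the 1 with an unadjusted p under 0.05. Of all loci, 1.05% were lower at that threshold. Slc25a37 was called higher in the 189N3 than in the Dp16 littermates (1.78, adjusted p = 0.0336). Tfrc, the transferrin receptor, which dividing cells of all kinds carry, differed by 0.40 between the wild-type groups (adjusted p = 0.0952). In Dp16 Slc25a37 was at 1.17 (standard error 0.51, adjusted p = 0.909 in limma) with overlapping groups. Without Dp16 replicate 1 it was at 0.71 (standard error 0.44). The list medians were -0.11 in 189N3 and -0.12 in Dp16 (-0.08 without replicate 1).

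The list of late erythroid and reticulocyte genes had the lowest median of the 6 in 189N3, -1.10, with 6 of 7 tested genes below 0. Of these, 5 had an unadjusted p under 0.05 in limma, where 1.05% of all loci were lower at that threshold. Ube2l6, a ubiquitin-conjugating enzyme of reticulocytes, was at -1.09 (standard error 0.26), Tent5c, a poly(A) polymerase, at -1.21 (standard error 0.32) and Isg20, an exonuclease, at -1.38 (standard error 0.30). In Dp16 the median of 5 tested genes was 0.48, and Trim10, a gene of terminal erythroid differentiation, had the smallest p (1.52, standard error 0.63, adjusted p = 0.909 in limma). Trim10 stood at 6.92, 95.2, 16.3 and 35.2 in Dp16, with replicate 1 the highest, and without that library it was at 0.89 (standard error 0.51) and the list median at 0.14. Between the wild-type groups, 3 of 7 were called higher in the 189N3 littermates, where 1.46% of loci were: Isg20 (2.74), Tent5c (2.07) and Ube2l6 (1.44).

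Among red cell enzymes, none of 6 tested genes had an unadjusted p under 0.05 in 189N3. Car2, a carbonic anhydrase that glia also carry, had the smallest p, at -0.56 (standard error 0.28), and was called higher in the 189N3 than in the Dp16 littermates (0.92, adjusted p = 0.0443). Of the transcription factors, 9 passed the filter and none had an unadjusted p under 0.05 in 189N3 or Dp16, with Nfe2 at -0.47 (standard error 0.47) and the receptor gene Epor at 0.32 (standard error 0.39) in 189N3. Gata1 and Klf1, the factors that drive globin transcription in nucleated erythroid precursors, were below the filter in every comparison, at 0 to 4.83 and 0.866 to 13.3 normalized fragments. Of the other globins, Cygb, cytoglobin, was at 0.22 (standard error 0.31) in 189N3 and Hbq1b at -0.13 (standard error 0.40), and in Dp16 Cygb was at -0.58 (standard error 0.26), or -0.44 (standard error 0.27) without replicate 1.

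The named genes most like the list over the 14 libraries were sought among 14765 named genes with a mean of at least 10, by Pearson correlation with the mean standardized profile of Hba-a1, Hba-a2, Hbb-bs, Hbb-bt, Slc4a1 and Alas2. The first 10 had r = 0.98 to 0.94, and among them were Tent5c, Pkp1, Ube2l6, AK145379, Slc25a37, Krt6a, Col1a1, Krt5 and Cd36. Tent5c, Ube2l6 and Slc25a37 are on the erythroid lists, which were written with earlier results of these data known. Krt5, Krt6a and the plakophilin gene Pkp1 belong to skin, and Col1a1 to connective tissue, whose list also stands for the meninges. The skin genes were just above the filter, with means of 11.6 (Krt5), 11.3 (Krt6a) and 10.3 (Pkp1) normalized fragments. After subtraction of each group mean, 7 of the 10 were again among the first 10. The points share library, scaling and group, and no test was made.

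**Figure D4:**
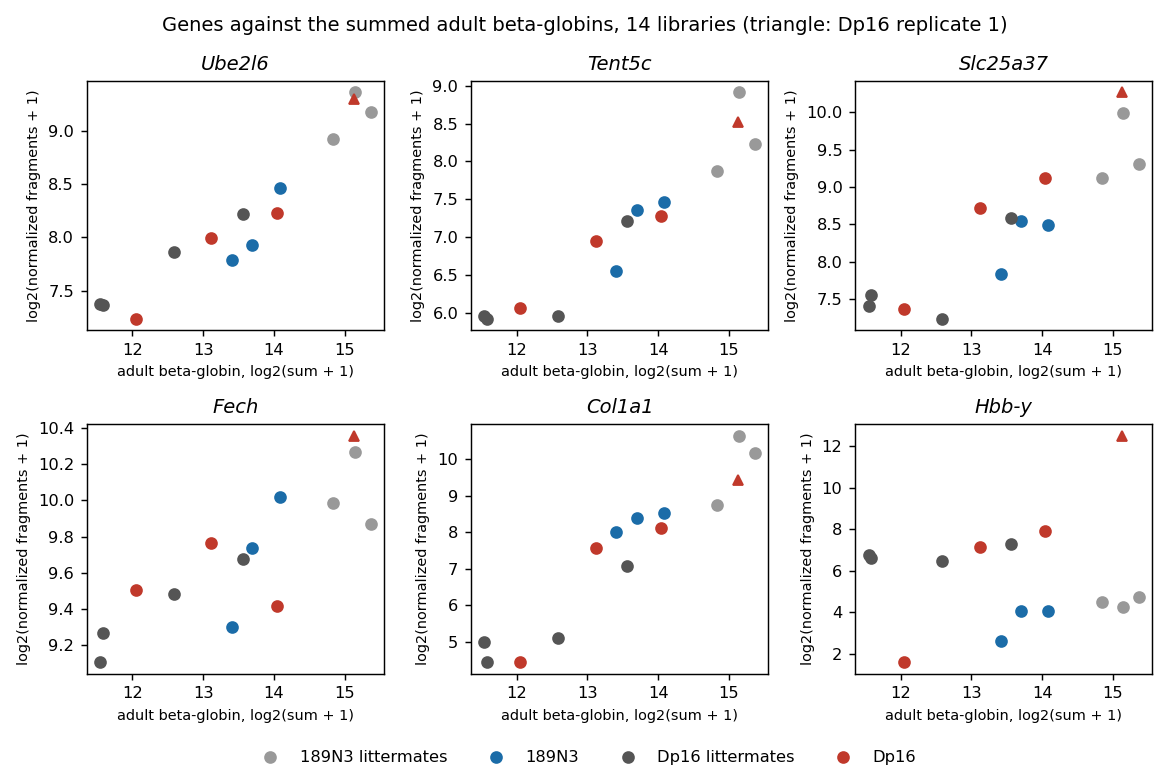
Each panel sets 1 gene, as log2(normalized fragments + 1), against the log2 sum of Hbb-bs and Hbb-bt in the 14 libraries, coloured by group, with Dp16 replicate 1 as a triangle. Ube2l6, Tent5c, Slc25a37 and Col1a1 increase along adult beta-globin. Hbb-y has r = 0.10 against Hbb-bs, and 0.80 after subtraction of each group mean. In the Dp16 line Hbb-y is at 86.4 normalized fragments or more except replicate 0, at 1.98. In the 189N3 line it is at 25.4 or less.

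Markers of skin, of muscle and of connective tissue with the meninges were followed beside the globins. In 189N3, 9 of 9 tested skin genes, 6 of 6 muscle genes and 8 of 8 connective tissue genes were below 0. Their medians were -2.10, -0.99 and -0.62. Of them 9, 4 and 4 had an unadjusted p under 0.05 in limma, where 1.05% of all loci were lower at that threshold. The skin list summed to 246 to 331 in 189N3, 358 to 2550 in the littermates, 188 to 290 in the Dp16 littermates and 238 to 610 in Dp16. Krt1, a keratin of the upper epidermis, reached 1135 in 189N3 littermate replicate 2. The connective tissue list summed to 2191 to 3376, 3000 to 7363, 1308 to 2313 and 1597 to 4539 in the same order. Col1a1, a collagen gene of that list, stood at 257, 331 and 365 in 189N3 and at 1601, 424 and 1141 in the littermates. The muscle list summed to 114 to 175, 172 to 403, 43.2 to 87.0 and 42.5 to 665, with Dp16 replicate 1 at the top. Of the skin genes 6 of 10, and of the muscle genes 2 of 8, were at 0 in at least 1 library. Between the wild-type groups 4 skin, 5 muscle and 3 connective tissue genes were called higher in the 189N3 littermates, where 1.46% of loci were. Col1a1 was among them at 4.44 (adjusted p = 0.0244 in limma). In Dp16 the medians of these lists were 0.61, 1.17 and 0.51, over 4, 5 and 8 tested genes, with no gene past the adjusted threshold. Replicate 1 had the highest sum of each list, and without it the medians were 0.11, 0.31 and 0.17, over 3, 4 and 8 genes. The part of these tissues in the globin differences was not tested.

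Other blood cells had few defining markers above the filter. In the platelet list, Pf4 stood at 0.989 to 47.1 normalized fragments over all libraries, with a fold change of -1.84 in 189N3 (standard error 0.51, adjusted p = 1.00 in limma), and its sum was set by the locus named Gp1bb, at 82718 to 148923. The white cell list summed to 522 to 1034 in 189N3 and 712 to 876 in the littermates, with none of 4 tested genes at an unadjusted p under 0.05. Of 10 endothelial genes 7 were above 0 in 189N3 (median 0.03, Flt1 at 0.60, standard error 0.28), and of 6 pericyte genes 4 were above 0 (median 0.06). The 9 genes of microglia and macrophages had a median of -0.22, none with an unadjusted p under 0.05. In Dp16, 8 of 10 endothelial and 5 of 6 pericyte genes were below 0 (medians -0.26 and -0.32), and without replicate 1 9 of 10 and 4 of 6 (medians -0.27 and -0.24). Between the wild-type groups the macrophage genes Lyve1 (2.51, adjusted p = 0.0315) and Mrc1 (1.91, adjusted p = 0.0316) were called higher in the 189N3 littermates, beside the globins. In that comparison 1.46% of loci were called higher.

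In 189N3 the 8 neuron genes were all above 0, with a median of 0.21, and the 8 progenitor genes had a median of -0.15, none with an unadjusted p under 0.05. Of 9 hippocampal field genes 6 were above 0 (median 0.02). Choroid plexus genes had a median of -0.15, and Ttr, transthyretin, stood at 13477 in 189N3 littermate replicate 0 against 259 and 326 in its other littermates. Between the wild-type groups the 8 progenitor genes were all lower in the 189N3 littermates (median -0.41). Eomes (-0.87, adjusted p = 0.0383 in limma) and Vim (-0.76, adjusted p = 0.0478) were called, where 2.29% of loci were called lower. Of the 8 neuron genes 5 were higher and 3 lower there (median 0.30), and Snap25 was called higher (0.81, adjusted p = 0.0307), where 1.46% of loci were. Dp16 replicate 1, the library with the most embryonic globin, also had the most of the proliferation genes Mki67 (20480, against 6480 to 13343 in the other libraries) and Top2a (20909, against 5395 to 9920). Both were picked from the 8 progenitor genes after their values were seen. The median of the 8 in Dp16 was 0.08, and 0.06 without replicate 1. The part of proliferation, age or dissection in the globin values of Dp16 replicate 1 was not tested.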

How the data were processed

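RNA from hippocampi was sequenced as paired-end reads of 100 bases after a stranded total RNA kit, although the labels name polyA RNA. The authors aligned the reads to mm10 with TopHat and Bowtie and assembled and counted loci with Cufflinks (versions not given in the sources used here). The deposited tables hold a signal, fragments per locus or isoform divided by 1 factor per library. In all 14 libraries 100% of low values were whole fragments within 0.1, so counts could be recovered. Loci were named through the deposited transcript map, after matching the isoform sums of 50201 loci (transcript numbers shifted by up to 11). The map names both adult alpha loci Hba-a2, and the one that the study's table pairs with Hba-a1 was given that name. Tests used limma 3.58.1 on log2(value + 1), with trend, on loci with a mean of at least 10, adjusted over all loci by Benjamini-Hochberg. Fold changes are on the log2(value + 1) scale and understate low genes. Alternatives were a pseudocount of 0.1 or 10, dropping the filter or raising it to 100, size factors by median ratio, scaling without erythroid genes, no trend, edgeR 4.0.16 and DESeq2 1.42.0 on recovered fragments, 1 fit of all groups, averaged littermates, a replicate block and leaving out each library. Single genes were tested by exact permutation. Shares, lists and correlations are descriptions. The scripts were tested on simulated data. The genes, lists and tests were chosen with earlier results of these data known. In lists, up to 3 genes with the smallest p in a comparison are named, and for other cell types the most abundant. The genes named for single libraries, Krt1, Gata1, Klf1, Ttr, Mki67 and Top2a, were chosen after their values were seen. No locus was matched for 11 symbols of the lists. Some genes that the rule would name are not reported here.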

Additional observations from a re-analysis of the deposited data

Results flagged for a closer look

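In Dp16 replicate 1, Hbb-y stood at 5846 normalized fragments, far from the next Dp16 library at 236, and Hba-x at 1315, with the next at 102. In the same library Hbb-y and Hbb-bh1 took 14.1% of beta-like fragments, with the next at 1.63%, and Hbb-bt took 30.6% of adult beta fragments, with the next at 24.6%. In each case the gap to the nearest library of the group took 0.888 to 0.960 of the group's range, past Dixon's limit for 4 samples. About 1 in 20 groups of normally distributed values is picked out this way by chance, and 32 were looked at. The limit was applied to levels and shares that were not log-transformed, so that rate may not hold. On the log2 scale Hbb-y stood at 1.57, 12.5, 7.16 and 7.89 in Dp16 replicates 0 to 3, and Hba-x at 3.16, 10.4, 6.28 and 6.68. Dp16 replicate 1 is the library in which the extra copy of the chromosome 16 region was not seen.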

How the results depend on the processing

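In 189N3 all tested genes stayed lower and in Dp16 all but Hbb-y stayed higher under every alternative. Without Dp16 replicate 1, Hbb-y turned to -1.23 in Dp16 and -0.30 in the difference between the models, and over all libraries left out in turn it ranged from -1.23 to 2.41 and from -0.30 to 3.34 (the cause was not tested). Loci called in 189N3 were 0, against 15 with DESeq2 (4 of the genes), 4 with median-ratio scaling and 0 to 28 without 1 library (0 to 3 of the genes, all 3 without littermate replicate 1). In Dp16 they were 0, against 8 with DESeq2 and 0 to 3 without 1 library, and for the difference of effects 0, against 0 to 1 without 1 library. Between the wild-type groups 1351 loci were called, against 3262 with DESeq2, 614 with no filter, 85 with no trend (2 of the genes), 28 with averaged littermates (3 of the genes) and 13 to 78 without 1 library (0 to 6 of the genes). Same-numbered libraries did not deviate together (r from -0.32 to -0.03 in the 189N3 line and from -0.45 to -0.07 in the Dp16 line). With 3 or 4 libraries in a group, such correlations cannot decide whether the number pairs libraries. With the replicate block, 72 loci and 5 of the genes were called in 189N3, and 0 in Dp16. All calls of listed genes in 189N3 are a description, since that comparison led to the list. The split of fragments between near-identical copies and the low counts of Hbb-bh1 limit single values. Of the 6 erythroid lists, 4 had a median below 0 in Dp16, and 5 without Dp16 replicate 1, an alternative chosen after seeing the data.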
